A study of Mus musculus with 3 samples.

Results

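The endothelial lineage genes measured here were Pecam1, Tek, Tie1, Emcn, Erg, Fli1, Vwf, Esam1, Tal1 and Ets1, 10 textbook genes of blood vessel endothelium or of its shared origin with blood. They were taken by name: every gene probe on the arrays whose listed gene symbol equals one of the 10 was kept, whatever its signal, and both colour channels were read. That gave 19 probes, out of 41174 gene probes for 27960 gene names. Esam1 is the arrays' older symbol for Esam.

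Expression was compared between mouse embryonic stem (ES) cells, pluripotent cells that can give rise to endothelium, and mouse embryonic fibroblasts (MEF), a primary culture of mesenchymal cells. The ES cells grew in serum-containing Knockout DMEM with leukemia inhibitory factor, which keeps them undifferentiated, and the MEF in DMEM with serum; neither received a treatment, and no strain, cell line name or age was given. Each of 3 two-colour arrays carried total RNA of 1 ES cell replicate in Cy3 beside MEF RNA in Cy5, and the stated purpose was to describe how ES cells differ from MEF. The series' design text calls the Cy5 RNA by another name in one place; every array's own label gives MEF, which was followed. Neither culture is endothelial, and in bulk RNA fewer cells of a type and less RNA per cell cannot be told apart.

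Endothelial cells line all vessels. Those of the embryo arise from mesoderm, some from precursors that also yield blood, under transcription factors of the ETS family (Erg, Fli1 and Ets1 among the genes here), which bind DNA at a GGAA core, and of the basic helix-loop-helix family (Tal1). Their surface carries the receptor tyrosine kinases Tie1 and Tek (also called Tie2, the receptor of the angiopoietins), the adhesion molecules Pecam1 and Esam and the sialomucin Emcn, and they store the clotting protein Vwf in granules. Several of these genes are also used outside endothelium: Pecam1, Fli1 and Ets1 in blood cells, Vwf in platelets, and Pecam1 on ES cells.

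Sequences are given for the probe with the highest ratio of all, for a probe of the secreted protein gene Vwf, and for the overlapping Ets1 probes, which gave different ratios. The coordinates are those in the files, on mouse build mm7, and each probe is written 5′ to 3′ as spotted. The Pecam1 probe A_51_P400868 lies at chr11:106790116-106791969 on the minus strand, where its 60 bases cover 1854 bases of genome, so it crosses an exon junction. The Vwf probe A_51_P103406 lies at chr6:125708635-125708694, the Ets1 probe A_52_P232830 at chr9:32655863-32655922 and the Ets1 probe A_51_P329043 at chr9:32655853-32655912, all on the plus strand. Capitals mark the positions at which the Ets1 probes differ.
Pecam1 A_51_P400868: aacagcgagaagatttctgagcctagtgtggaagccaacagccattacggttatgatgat
Vwf A_51_P103406: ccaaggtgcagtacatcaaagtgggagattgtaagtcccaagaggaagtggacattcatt
Ets1 A_52_P232830: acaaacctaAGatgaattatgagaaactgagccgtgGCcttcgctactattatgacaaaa
Ets1 A_51_P329043: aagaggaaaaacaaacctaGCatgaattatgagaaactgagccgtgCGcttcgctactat
The Ets1 probes share 50 positions, of which 46 hold the same base. The other 4 are A10G, G11C, G37C and C38G, counted from 1 at the 5′ end of A_52_P232830, whose base is written first.

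The arrays stood close together and bore out their labels. The ES cell markers on the arrays were higher in ES cells in 7 of 7 cases, with log2 ratios (ES cells over MEF) of 3.75 ± 0.055 for Pou5f1 and 4.02 ± 0.028 for Nanog (SD, n = 3 arrays). All 10 fibroblast markers were lower, with Col1a1 at -8.10 ± 0.016 and Thy1 at -2.52 ± 0.026. Over the arrays, 68.6% to 70.6% of spots for genes exceeded background clearly in ES cells and 68.2% to 74.0% in MEF. A probe was tested if the scanner software flagged it well above background in at least 1 channel on all 3 arrays, and called at an adjusted p under 0.05 (limma, over 29500 probes) with at least a 2-fold difference. In ES cells 19.9% of tested probes were called higher and 21.1% lower, 41.0% in all, and 95.4% passed the p threshold alone, so the fold minimum set most calls. Whether the ES cell replicates were grown apart is not in the labels, so the p-values cover array-to-array spread alone, and that spread may be technical. The MEF RNA counts as 1 control whose own spread was not measured, and since dyes were not swapped, any preference of a probe for Cy3 or Cy5 is part of its ratio.

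The endothelial lineage genes did not move one way. Pecam1, Tek and Vwf were higher in ES cells, by up to 6.04-fold, while Emcn and the ETS factor genes Erg, Fli1 and Ets1 were lower, by up to 23.5-fold. Esam1 and Tal1 did not reach the fold minimum, and Tie1 was not well above background in either channel on any array. Of the 19 probes 15 could be tested, and 13 of these were called, against 41.0% of all tested probes: 5 higher, against 19.9%, and 8 lower, against 21.1%. The median log2 ratio of the 15 was -1.36, and that of all tested probes -0.02. Probes of 1 gene share its RNA, and Ets1 alone gave 4 of the 15, including the probe at the median. Counted by gene, 3 of the 9 tested members were higher and 4 lower, against 20.4% and 22.4% of all tested genes. Each of the 15 had 1 sign on all 3 arrays. How many of all tested probes did so was not counted, but 95.4% passed the p threshold, so this sets the 15 apart little. Raw ES cell and MEF brightness did not overlap in 15 of 15, which held for 90.5% of all tested probes and so sets the members apart little too. No spot of a member was saturated or excluded as an outlier.

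**Figure D1:**
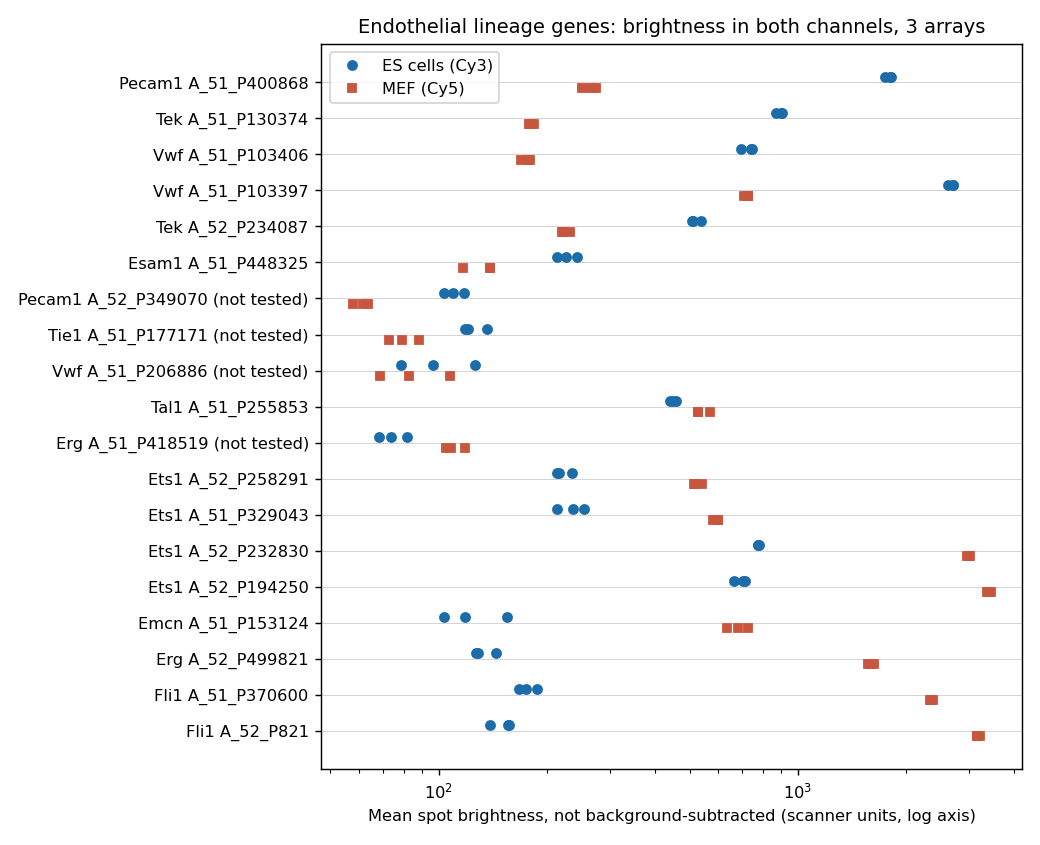
Mean spot brightness of the 19 probes in scanner units on a log axis, without background subtraction, with 1 point per array for ES cells (Cy3, circles) and for MEF (Cy5, squares). The channels are separate for 18 of 19 probes, including the 15 tested ones. Such separation held for 90.5% of all tested probes. Pecam1 A_52_P349070, the Tie1 probe and Erg A_51_P418519 are separate but not well above background in either channel. Only Vwf A_51_P206886, also not well above background in either, overlaps. Brightness should be compared within a row, not between probes.

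Among the surface and secreted proteins, Pecam1 (CD31, a homophilic adhesion molecule of endothelial junctions) had the highest ratio of all members. Its probe A_51_P400868 had a mean brightness of 1818, 1804 and 1752 units in ES cells on arrays 1, 2 and 3, against 274, 267 and 251 units in MEF. Every ES cell value was thus above every MEF value, and the log2 ratio was 2.55, 2.61 and 2.62 on the 3 arrays, 2.59 ± 0.041 in the mean (SD, n = 3), 6.04-fold (limma adjusted p 3.09e-07). The probe is spotted 10 times on each array, and no single ES cell spot, at 1290 units or more, came near the brightest MEF spot, at 359 units. Single-spot log2 ratios ran from 2.35 to 2.67 on array 1, from 2.39 to 2.74 on array 2 and from 2.50 to 2.73 on array 3, so spots within an array varied more than the array means did. A second Pecam1 probe, A_52_P349070, designed from a RIKEN cDNA, was not well above background in either channel and was not tested.

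**Figure D2:**
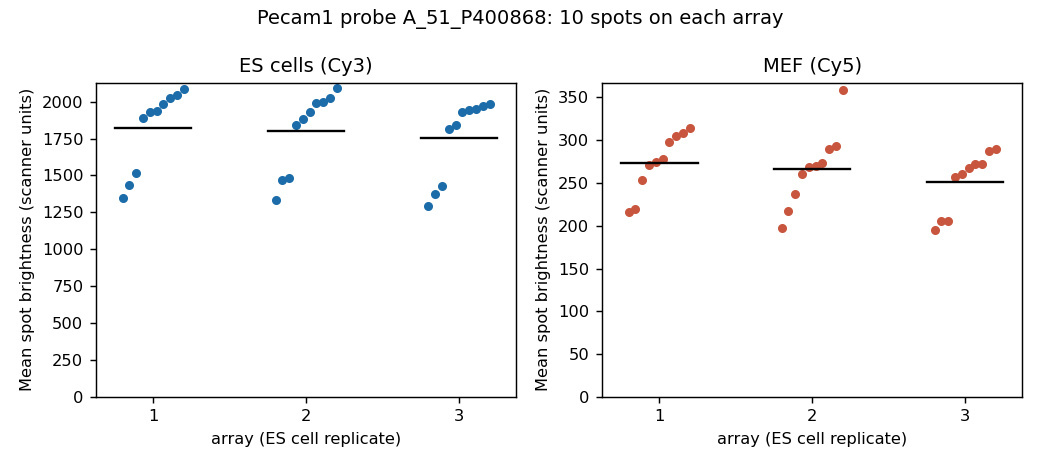
Mean brightness in scanner units of the 10 spots of Pecam1 probe A_51_P400868 on each of the 3 arrays, in ES cells (left) and in MEF (right), sorted within each array, with a bar at the array's mean. The ES cell spots lie between 1290 and 2089 units and the MEF spots between 195 and 359 units; the panels have separate vertical axes that start at 0.

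Vwf encodes von Willebrand factor, the multimeric protein that tethers platelets to a damaged vessel wall. Probe A_51_P103397 read 2701, 2700 and 2625 units in ES cells, against 728, 726 and 711 in MEF. Probe A_51_P103406, shown above, read 739, 745 and 694 units in ES cells, against 170, 180 and 177 in MEF. Both were brighter in ES cells on every array, at log2 ratios of 1.72 ± 0.014 and 1.87 ± 0.078 (SD, n = 3; limma adjusted p of 2.91e-07 and 2.30e-06). The third Vwf probe, A_51_P206886, was designed from a RIKEN cDNA and starts at chr6:125627345 on mm7, away from the other probes at chr6:125708635 and chr6:125709328. It was not well above background in either channel, with overlapping brightness, and was not tested.

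Esam1 encodes an immunoglobulin-family adhesion molecule of endothelial tight junctions and platelets. Its brightness was 243, 226 and 214 units in ES cells and 139, 139 and 117 units in MEF, where the probe was well above background on 2 of 3 arrays. The channels did not overlap, but the log2 ratio of 0.68 ± 0.073 (SD, n = 3) was under the 2-fold minimum and Esam1 was not called. With the scanner software's own processed signals the ratio was 1.35 (limma adjusted p 0.00218) and the gene would be called higher.

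Emcn (endomucin, a sialomucin that marks capillary and venous endothelium) went the other way from the other surface genes that were called. Its probe read 118, 104 and 155 units in ES cells, against 681, 636 and 727 units in MEF. The ES cell channel was well above background on array 3 only, which gave the brightest ES cell value, so on arrays 1 and 2 the ratio is set against background. The log2 ratios of -2.69, -2.79 and -2.27 averaged -2.58 ± 0.28 (SD, n = 3; limma adjusted p 4.13e-05), the widest spread among the tested members. The size of this ratio is therefore loosely fixed, while the MEF channel was well above background on all 3 arrays.

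Of the receptor genes, Tek was higher in ES cells by both of its probes. Probe A_51_P130374 gave 906, 900 and 868 units in ES cells, against 185, 179 and 181 in MEF. The channels lay far apart, and the log2 ratio was 2.11 ± 0.056, a 4.31-fold difference (SD, n = 3; limma adjusted p 7.70e-07). Probe A_52_P234087, from a RIKEN cDNA, gave 538, 507 and 511 units in ES cells, against 222, 221 and 232 in MEF, at 1.04 ± 0.060 (limma adjusted p 6.77e-06). This second ratio lay just past the fold minimum, 1 of its arrays was under it at 0.99, and its call was lost when limma's treat tested against the minimum itself (adjusted p 0.232). On mm7 the second probe starts at chr4:94134402 and the first at chr4:94266776, so they read different portions of the locus.

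Tie1, the orphan receptor that pairs with Tek, had 1 probe, with 136, 119 and 121 units in ES cells and 88.0, 72.9 and 79.3 units in MEF. These values did not overlap between the channels, yet the probe was not well above background in either, so no level or difference was called for Tie1.

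**Figure D3:**
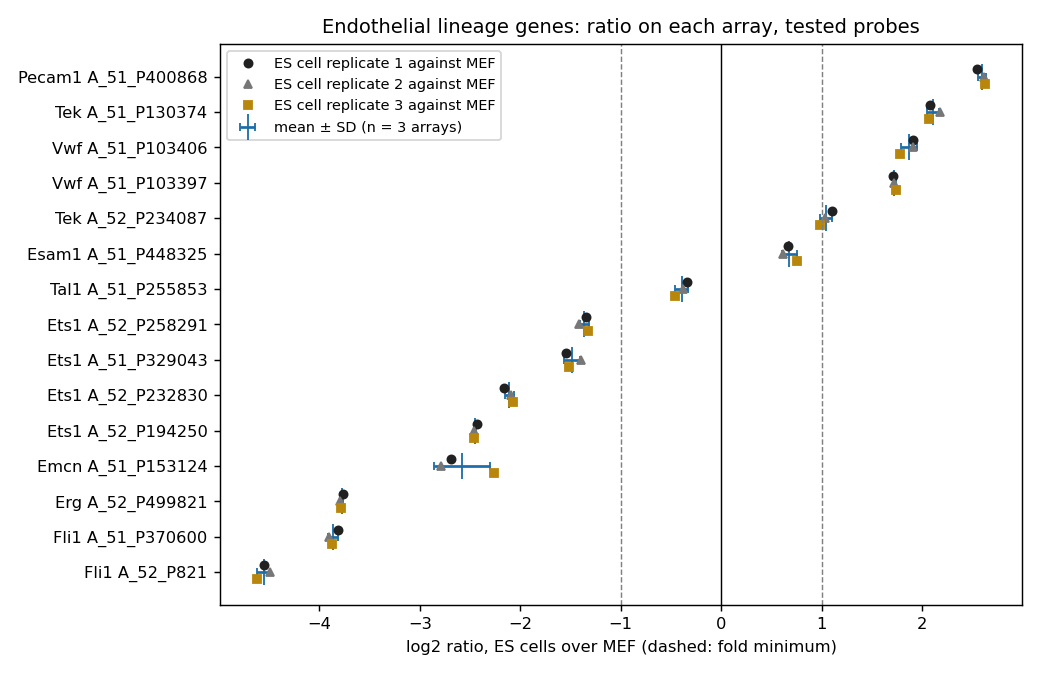
Log2 ratio of ES cells over MEF on each of the 3 arrays for the 15 tested probes, with the mean and its SD as a cross and the fold minimum as dashed lines. Pecam1, Tek and Vwf lie at the right, from 1.04 to 2.59, and Ets1, Emcn, Erg and Fli1 at the left, from -4.56 to -1.36; the arrays agree closely except for Emcn.

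Each of the 3 ETS factor genes was lower in ES cells by every tested probe, 7 probes in all. Fli1, which acts in both endothelial and blood cell development, had the lowest ratios of all members. Its probe A_52_P821 read 157, 156 and 139 units in ES cells, against 3164, 3156 and 3228 in MEF, and A_51_P370600 read 188, 175 and 168 units in ES cells, against 2374, 2351 and 2329 in MEF. No array brought the channels near each other, and the log2 ratios were -4.56 ± 0.068 and -3.86 ± 0.046, which are 23.5-fold and 14.6-fold lower (SD, n = 3; limma adjusted p of 2.40e-07 and 2.04e-07). Neither probe was at background in either channel on any array.

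Erg, an ETS factor expressed throughout the life of endothelial cells, was well above background in MEF only, and by its tested probe alone. Probe A_52_P499821 gave 144, 129 and 127 units in ES cells, against 1591, 1568 and 1630 units in MEF. Since the ES cell channel was not well above background on any array, its ratio is a bound: Erg RNA was lower in ES cells, at least 13.5-fold lower when measured from the dimmest signal that counts as above background on each array or the probe's own where that was higher, with a limma adjusted p of 1.84e-07 for the measured log2 ratio of -3.78 ± 0.017 (SD, n = 3). The second probe, A_51_P418519, read 73.9, 81.6 and 68.4 units in ES cells and 105, 118 and 108 units in MEF. It was not well above background in either and was not tested. The tested probe was designed from a RIKEN cDNA and the second from a RefSeq transcript. The Erg result thus rests on the cDNA probe, and the RefSeq probe did not show Erg in MEF. On mm7 the probes start at chr16:95666556 and chr16:95667269.

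Ets1, the founding member of the family, was read by 4 probes. Probe A_52_P194250 gave 704, 711 and 666 units in ES cells against 3384, 3444 and 3376 in MEF. Its log2 ratio was -2.45 ± 0.014 (SD, n = 3; limma adjusted p 1.96e-07), the largest reduction of the 4. For A_52_P232830 the values were 775, 782 and 776 units in ES cells and 3009, 2964 and 2991 in MEF, at -2.11 ± 0.048. The overlapping A_51_P329043 gave 236, 254 and 214 units in ES cells and 601, 598 and 582 in MEF, at -1.48 ± 0.080. The last, A_52_P258291, gave 235, 213 and 216 units in ES cells and 540, 515 and 517 in MEF, at -1.36 ± 0.044. All 4 were lower in ES cells without overlap on any array, but their sizes differed by 1.09 on the log2 scale, against an SD between arrays of 0.080 or less. Of the overlapping probes, the one with the smaller reduction was designed from another cDNA record; what part the 4 bases have in the difference was not tested.

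Tal1 (SCL), the helix-loop-helix factor needed for blood and for the precursors it shares with endothelium, was nearly level. It gave 459, 450 and 441 units in ES cells, against 526, 528 and 571 in MEF, a small difference without overlap. The log2 ratio of -0.39 ± 0.063 (SD, n = 3) was far from the fold minimum, so Tal1 was not called, although its limma adjusted p was 0.000235.

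Probes of one gene never disagreed in sign when tested, but they differed in size beyond the spread between arrays for Ets1, Tek and Fli1, by 1.09, 1.06 and 0.69 on the log2 scale, and by a smaller 0.14 for Vwf, whose array ranges did not overlap either. Ordered by ratio, neighbouring probes were separate on all arrays except for the pair of Ets1 probes at -1.36 and -1.48 and for Ets1 at -2.45 beside Emcn at -2.58, whose ranges overlapped. The sizes also depended on how background was treated. With the scanner software's processed signals the log2 ratios were -5.19 for Erg, -4.28 for Emcn, -4.67 and -5.56 for the Fli1 probes, 2.89 for Tek probe A_51_P130374 and 2.57 for Vwf probe A_51_P103406, each a fold difference over 1.5 times as large, and the Erg bound became at least 29.2-fold lower.

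In the RefSeq annotation of assembly GRCm38.p6, Fli1 and Ets1 are neighbouring genes on chromosome 9, and Erg lies beside Ets2, another ETS factor gene, on chromosome 16. Ets2, looked up after its value was seen, was also lower in ES cells, with 3721, 3712 and 3650 units against 14290, 14123 and 14226 in MEF and a log2 ratio of -2.12 ± 0.0040 (SD, n = 3; limma adjusted p 1.78e-07). Both pairs of neighbours were thus lower in ES cells in all 4 genes.

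Promoter sequences (250 bases before to 50 bases after a start, RefSeq, GRCm38.p6) were found for 5 of the members. They are shown for Tek, a called gene higher in ES cells, and for Emcn, lower, at chr4:94739039-94739338 and chr3:137340828-137341127, both on the plus strand. Capitals mark matches, on either strand, to GGAAG, which is the GGAA core of ETS factors with 1 more base. They mark likewise the motif bound by GATA factors, spelled AGATAA.
Tek promoter: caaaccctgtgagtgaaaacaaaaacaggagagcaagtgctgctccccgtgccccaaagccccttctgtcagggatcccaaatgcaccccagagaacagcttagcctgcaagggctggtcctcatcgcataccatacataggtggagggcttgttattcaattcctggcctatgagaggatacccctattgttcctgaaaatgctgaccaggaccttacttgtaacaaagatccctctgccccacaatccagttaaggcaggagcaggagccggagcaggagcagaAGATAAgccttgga
Emcn promoter: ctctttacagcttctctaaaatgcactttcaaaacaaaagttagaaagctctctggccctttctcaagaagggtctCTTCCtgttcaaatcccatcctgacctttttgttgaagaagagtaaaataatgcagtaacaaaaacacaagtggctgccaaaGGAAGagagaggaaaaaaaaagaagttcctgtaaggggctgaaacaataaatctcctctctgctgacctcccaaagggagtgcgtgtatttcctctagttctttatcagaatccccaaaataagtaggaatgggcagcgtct
GGAAG occurred 2 times in the Emcn window, 7 times in that of Tie1, 0 times in that of Tek, 0, 1 and 1 times in the 3 windows of Erg and 0 and 2 times in the windows of Tal1. Of 32851 mouse promoter windows 71.4% hold it at least once. AGATAA occurred 1 time in the Tek window, 1 time in 1 of the Erg windows and 1 time in 1 of the Tal1 windows, and 0 times in those of Emcn and Tie1, against 11.2% of all windows with a match. The shorter GGAA core was neither counted nor marked. It also stands in the Tek window, as TTCC on the other strand, so 0 matches to GGAAG do not mean that the core is absent. Such matches are letters in a window and show no binding.

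Other endothelial genes also lay on both sides, but only the share lower in ES cells stood well above that of all tested genes. The lists were chosen with earlier results of these data known, so the shares describe these lists and test nothing. Of 81 listed genes 76 were tested. In ES cells 18 were higher (23.7%) and 36 lower (47.4%), with a median log2 ratio of -0.56. Over all 19494 tested genes, each read by its brightest probe, 20.4% were higher and 22.4% lower and the median was -0.05. Among receptors and ligands 3 of 22 were higher and 12 lower. They included Notch4, a Notch receptor of endothelium, at 3.12 ± 0.065 and Robo4, a guidance receptor of vessels, at 2.86 ± 0.083, and on the low side Nrp1, a co-receptor of vascular endothelial growth factor, at -3.78 ± 0.011 and Angpt2, a Tek ligand, at -3.64 ± 0.058 (log2, SD, n = 3). Tek was thus higher in ES cells while its ligand gene Angpt2 was lower.

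Surface, junction and secreted genes had 8 of 31 higher and 11 lower. The matrix glycoprotein gene Mmrn2 (4.15 ± 0.048) and the junction gene Jam2 (3.48 ± 0.0097) were highest, and the scavenger receptor gene Stab1 (-5.59 ± 0.036) and Cd93 (-4.85 ± 0.083) lowest. By the mean of all their tested probes Jam2 was at 2.36, Stab1 at -4.51 and Cd93 at -3.35, so these sizes depend on the probe. Cdh5, the cadherin that defines endothelial junctions, was not tested, nor were Sele, Mmrn1 and Lyve1; none of the 4 was well above background on all 3 arrays in either channel. Transcription factors had 7 of 23 higher and 13 lower. Etv2, the ETS factor that starts the endothelial programme in the embryo, was at 2.62 ± 0.083 and so moved opposite to Erg, Fli1 and Ets1. Its MEF channel was well above background on 2 of 3 arrays only, and with processed signals its ratio was 4.02, so its size is loosely fixed. Klf2, a flow-responsive factor, was at 1.75 ± 0.022 by its brightest probe but at 0.44, under the fold minimum, by the mean of its tested probes. Lyl1, a close relative of Tal1, was at -4.45 ± 0.064 and Foxc2 at -4.01 ± 0.023.

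**Figure D4:**
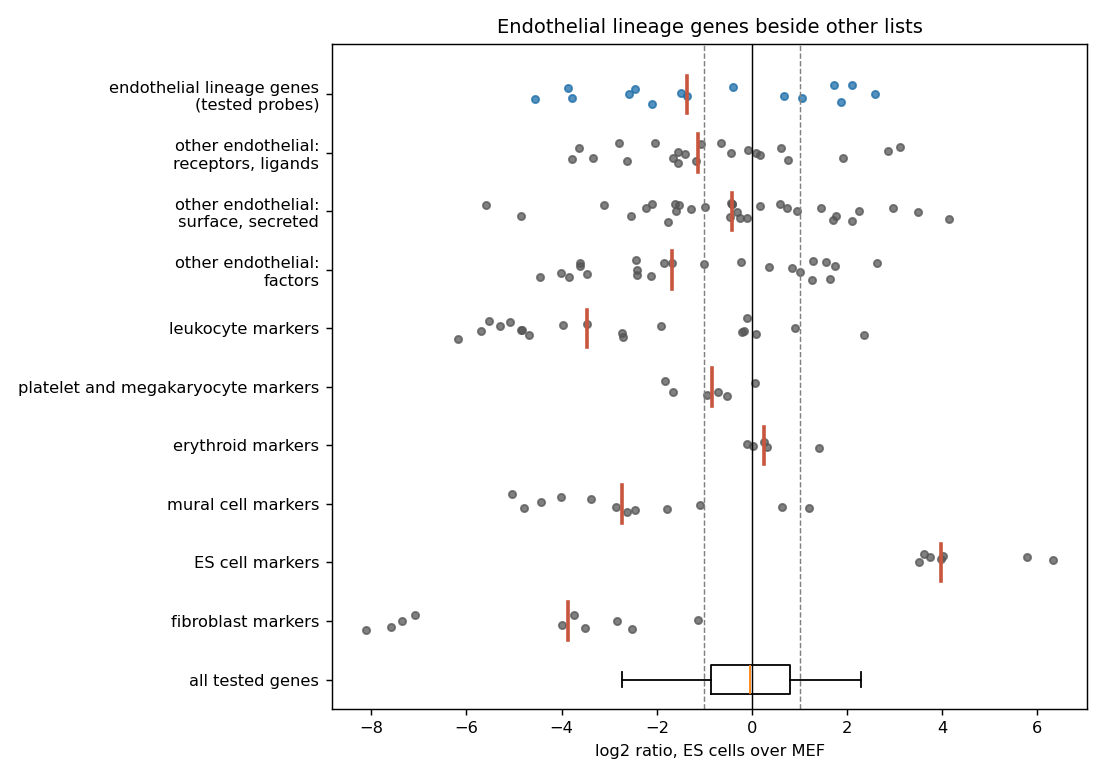
Log2 ratio of ES cells over MEF for the 15 tested member probes and, by the brightest probe, for the tested genes of each other list; red bars are medians, dashed lines the fold minimum, and the box shows quartiles with whiskers to the 5th and 95th percentiles of all tested genes. Member probes lie on both sides of 0, as do other endothelial genes, while the leukocyte and mural markers lie mostly below it.

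Markers of other cell types, in some of which members are used, were counted in the same way, against 20.4% of all tested genes higher and 22.4% lower. Of the leukocyte markers 13 of 19 were lower in ES cells and 1 higher, with Lyz2 (lysozyme) at -6.18 ± 0.012 and Lck, a T cell kinase, at 2.36 ± 0.030. Their brightness, summed after background correction and normalization, was 35150 to 35577 units in ES cells, against 540152 to 573837 in MEF. Such normalized sums are not on the scale of the raw brightness given for single probes. The shared leukocyte antigen gene Ptprc (CD45), looked up after the lists were counted, gave 167, 159 and 145 units in ES cells and 3509, 3533 and 3567 in MEF. Leukocyte markers thus moved in the direction of Fli1, Ets1, Erg and Emcn and opposite to Pecam1, and their part in the members' ratios was not tested.

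Mural cell markers, of the pericytes and smooth muscle that wrap vessels, were lower in 10 of 12 and higher in 1. Tagln was at -5.04 ± 0.056 and Mcam at 1.20 ± 0.017. The normalized sums of the list were 76999 to 79266 units in ES cells against 662248 to 673511 in MEF. By the mean of its tested probes Mcam was at 0.84, which left 0 mural markers higher. Platelet and megakaryocyte markers, of cells that share Vwf and Pecam1 with endothelium, were lower in 2 of 6 and higher in 0, with Gp1bb at -1.82 ± 0.0038. These are too few genes to set against the share over all tested genes. Their normalized sums were 9992 to 10059 units in ES cells against 29271 to 30139 in MEF. Most of this came from Pf4 (platelet factor 4, named after its values were seen). Its raw brightness was 9481, 9486 and 9493 units in ES cells against 25641, 26214 and 26650 in MEF. Gp9, Gp5, Gp1ba and Gp6 were not well above background in either channel. Erythroid markers were higher in 1 of 5, Klf1 at 1.40 ± 0.044, and lower in 0. These too are too few to set against the share over all tested genes. Their normalized sums were 2299 to 2331 units in ES cells and 1754 to 1793 in MEF. The part of these cells in the ratios of Vwf, Pecam1 and Tal1 was not tested.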

How the data were processed

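Per the file headers, the authors scanned 3 arrays on 1 slide and read them with Agilent Feature Extraction 9.5.3.1, with probe coordinates on mm7. The deposited spot and background intensities were not background-subtracted. For the deposited processed intensities the software subtracted background and normalized the dyes, and the deposited log10 ratio is Cy5 over Cy3 (MEF over ES cells), per the file headers. The authors' deposited log2 table equals the sign-turned processed ratio within 0.01 for 85.4% to 87.8% of probes; its columns have medians of 0.213, 0.0859 and -0.143, and what was done to the other probes is not given in the sources used here.

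Intensities were corrected by normexp (offset 50) and loess in limma 3.58.1 (R 4.3.3), with control spots at weight 0, and turned to ES cells over MEF. The offset shrinks ratios of dim probes. List sums add the normalized channel levels, with average brightness quantile-normalized between arrays, while other brightness values are raw. Spots marked as outliers were dropped, and repeated spots averaged. Log2 ratios were tested against 0 with limma (intercept only, Benjamini-Hochberg over 29500 probes); slide and scan could not be tested as batches. The number of arrays limits the precision. The procedure was tested on simulated data. For other lists the brightest tested probe stood for its gene, named through the RefSeq table of GRCm38.p6. Named were all members, the 2 highest and 2 lowest called genes of each endothelial list, the highest and lowest called gene of each blood or mural cell list, and, for ES cells and fibroblasts, Pou5f1, Nanog, Col1a1 and Thy1; Ets2, Ptprc, Pf4 and the genes not tested were named after their values were seen. The members and lists were chosen with earlier results of these data known. Alternatives covered background, normalization, filters, replicates, call rule, probe choice and the deposited log2 table. Probes were not placed in exons or UTRs, since no mm7 annotation was used here.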

Additional observations from a re-analysis of the deposited data

How the results depend on the processing

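Over the 15 tested member probes, 202 alternative values were computed: 197 kept direction and call, 1 lost the call (Tek A_52_P234087 under treat), 4 gained one and 0 reversed. Esam1 was called higher with processed signals, with the authors' deposited log2 table (both 1.35) and with no fold minimum, and Tal1 lower with no fold minimum (-0.39). The deposited table equals the processed ratio within 0.01 for 94.7% to 100% of member probes, depending on the array. Processed signals and deposited table are therefore not separate alternatives, though both are counted in the 202. Member probes called ran from 4 (treat) to 6 higher and from 6 (filter on both channels, which drops Erg and Emcn) to 9 lower; with any 1 array left out they stayed at 5 and 8. With no fold minimum 13848 probes and 8953 genes were higher, 14297 probes and 9657 genes lower, and 28 other endothelial genes higher, since nearly every tested probe passes the p threshold. The filter on both channels left 5 surface, junction and secreted genes higher in place of 8. The mean of all tested probes took Klf2 (0.44) and Mcam (0.84) under the fold minimum. It also gave smaller sizes for Col1a1 (-5.93), Lyz2 (-5.16), Nrp1 (-3.10) and Tagln (-4.49). The range between probes with processed signals was 0.69 for Ets1, 0.88 for Fli1, 1.47 for Tek and 0.61 for Vwf. No paired analysis was possible because there is 1 group of samples, and each array already sets its ES cell RNA against MEF RNA. Signal over background limits Tie1, the second Pecam1 and Erg probes, the third Vwf probe, Esam1 in MEF and Emcn and Erg in ES cells.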
